A study of Homo sapiens with 8 samples.

Results

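Solute carriers are the membrane transport proteins that move amino acids, sugars, ions, vitamins and other small molecules across the plasma membrane and the membranes of organelles, and their genes carry the symbol SLC. The genes described here were selected on their measured level. They have a symbol of the form SLC, family number, A, member number, SLC40A1 and SLC11A2 were left out by name, and 2 or more of the 8 libraries had them at a normalized count of 10 or higher. Of the 283 symbols of this kind 201 passed, among 28859 genes in the deposited table, of which 14881 reached the same level and were tested. The other 82 symbols stayed under the threshold, and 6 of these had 0 reads in every library. The choice used the level only and no difference between groups, except that 3 of the genes called later, SLC6A14, SLC6A17 and SLC25A48, passed only through the TR1 libraries. A high level with TR1 was thus part of their choice, so their differences from TR1 are given as a description with no test. They make up 3 of the calls between TR1 and the control, 3 of those between TR1 and wild type and 1 of those between TR2 and TR1. Just inside the threshold were SLC22A15, SLC44A4 and SLC26A10, with a second highest value of 11.6, 11.7 and 11.7. Just outside were SLC10A5, SLC22A31 and SLC25A34, with 9.20, 8.99 and 8.73.

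The libraries were made from total RNA of T47D, an established human breast cancer line of luminal type. The 4 groups carried a control plasmid (EV), HA-tagged wild-type GATA3 (wt), or HA-tagged GATA3 in the truncated form TR1 or TR2, with 2 libraries in each group. GATA3 is a zinc finger transcription factor of luminal breast epithelium. The labels do not give the promoter of the plasmids, the length of expression, or whether lines were clones or replicates separate cultures, so p-values measure only the spread between these samples. All the groups, the control included, keep the GATA3 of the T47D cells themselves, and the counts do not separate it from the plasmid's.

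Carriers are grouped by number, each family sharing a fold and often a class of substrate. Light chains such as SLC7A5 need the heavy chain SLC3A2 to reach the cell surface, where the pair exchanges large neutral amino acids such as leucine for glutamine. Many others draw on the sodium, proton or chloride gradients that the sodium pump and ion exchangers set up. In breast cancer cells, carriers of amino acids, glucose, lactate and zinc are among the most studied.

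Reads on genes numbered 13292861 to 19572394 per library. Normalized counts are the deposited values returned to the linear scale. A gene is called different where limma gave an adjusted p under 0.05 in 1 fit of all 8 libraries, and fold changes are differences of log2(normalized count + 1), given with their standard error (SE). The TR1 libraries differed most from each other. Over 153 SLC genes with a mean of at least 100, the spread of the log2 difference within a pair (SD over genes) was 0.345 with TR1, against 0.161 in the control, 0.124 with wild type and 0.125 with TR2. GATA3 lay between 12676 and 13833 in the 4 libraries without a truncated form and between 8638 and 10588 in the others. All 8 luminal markers checked reached the level threshold. Of 5 fibroblast markers, DCN stood at 64.0 and 58.6 for TR1, 2.70 and 1.86 for TR2 and 0 reads elsewhere, and LUM at 7.76 and 27.6 with TR1 and 0 reads elsewhere. COL1A1 went the other way, at 377 and 379 in the control and 392 and 423 with wild type. It was lower with TR1, at 236 and 205, and with TR2, at 277 and 258. COL1A2 had 0 reads in all libraries, and PDGFRB reached at most 2.51. The sum of the 5 was 378 to 379 in the control, 392 to 423 with wild type, 294 to 309 with TR1 and 262 to 280 with TR2, and its part in the results was not tested. In bulk RNA, fewer cells of a kind and less RNA per cell cannot be told apart.

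Together the SLC genes made up a share of 1.1% to 1.2% of each library. Levels of different genes are compared here as normalized counts per kilobase of merged exons, averaged over the 8 libraries. On that scale the adenine nucleotide carriers of the inner mitochondrial membrane led, with SLC25A5 at 5773 and SLC25A6 at 4779, although both have near-identical copies in the genome between which reads may have been split. SLC7A5, the light chain for large neutral amino acids, followed at 4000. Next came the zinc transporter of the early secretory pathway SLC39A7 at 1835, the mitochondrial citrate carrier SLC25A1 at 1803 and the glutamine transporter SLC1A5 at 1552. SLC25A39 stood at 1491, the phosphate carrier SLC25A3 at 1330 and SLC3A2 at 1064. At the other end were SLC6A17 at 1.98 and SLC25A48 at 0.63. Of the 201 genes, 180 had a normalized count of at least 10 in every library.

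Between TR1 and the control, 31 of the 201 SLC genes (15.4%) were called, or 28 without the 3 genes that passed through TR1 alone, beside 10.6% of all genes tested. They were 16 higher (4.91% of all genes) and 15 lower (5.69%), with a median log2 fold change of 0.02 over the SLC genes and 0.02 over all genes. With median centring the split was 13 higher and 25 lower, and with quantile normalization 12 and 22. Leaving out control replicate 1 gave a total of 10 (4.06% of all genes), control replicate 2 gave 11 (4.23%) and either wild-type library 18 (6.38% and 6.4%), and fitting only these groups gave 9 (3.25%). Without TR1 replicate 1 the total was 73, which is 36.3% of the SLC genes beside 34.7% of all genes. Between TR2 and the control 3 were called (0.921% of all genes), 1 higher (0.524%) and 2 lower (0.396%), with a split of 2 and 2 under quantile normalization. That count was 1 without any single control, wild-type or TR2 library (0.121% to 0.484% of all genes). Without TR1 replicate 1 or 2 it was 37 or 39, which is 18.4% or 19.4% of the SLC genes beside 18.4% or 18.5% of all genes. Between wild type and the control 3 were called (1.69%), 1 higher (0.685%) and 2 lower (1.0%), and the count was 1 without control replicate 2 or either wild-type library (0.329% to 0.491% of all genes). Leaving out TR1 replicate 1 or 2 made it 25 or 24, which is 12.4% or 11.9% of the SLC genes beside 11.8% of all genes for both. These last 3 comparisons share the control libraries.

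The truncated forms were next set against wild type. With TR1, 48 SLC genes (23.9%) were called, or 45 without the 3 named above, beside 15% of all genes, with 29 higher (7.60% of all genes) and 19 lower (7.38%). Leaving out wild-type replicate 1 gave a total of 17 (6.23% of all genes), wild-type replicate 2 gave 15 (5.77%), and fitting only these groups gave 19 (7.0%). Without TR1 replicate 1 or 2 the total was 77 or 72, which is 38.3% or 35.8% of the SLC genes beside 31.9% or 21.6% of all genes. With TR2, 14 were called (5.24% of all genes), 8 higher (2.75%) and 6 lower (2.49%). That total ranged from 3 to 5 when a wild-type or TR2 library was left out (1.52% to 1.69% of all genes). Leaving out TR1 replicate 1 or 2 made it 41 or 43, which is 20.4% or 21.4% of the SLC genes beside 14.1% or 14.2% of all genes. Directly between TR2 and TR1, 3 were called without the genes that passed through TR1 alone. These were SLC24A3, higher with TR2 (0.585% of all genes), and SLC22A23 and SLC43A2, lower (0.632%). With SLC6A14, which passed through TR1 alone and is given no test, the count was 4 (1.22%). That count was 17 without TR1 replicate 1 (10.6% of all genes), 20 without TR1 replicate 2 (8.47%) and 2 without TR2 replicate 1 (0.202%). In all, 55 SLC genes were called in at least 1 comparison and 146 in none. The 55 include the 3 genes that passed through TR1 alone. The same count was not made over all genes, so no share stands beside it.

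**Figure D1:**
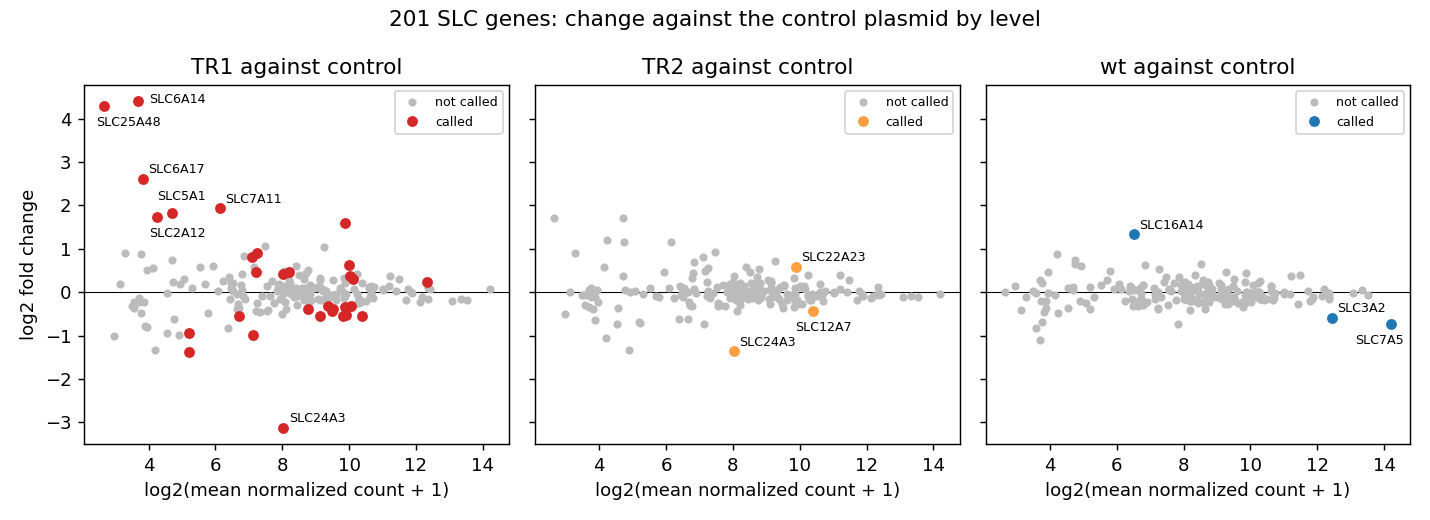
Log2 fold change against the control plasmid (vertical) by log2 of the mean normalized count plus 1 over all 8 libraries (horizontal), with 1 point for each of the 201 SLC genes and coloured points for genes called by limma. SLC24A3 at -3.13 is the lowest point with TR1. With TR1 31 genes are called, beside 10.6% of all genes, or 28 without the 3 that passed the level threshold through TR1 alone. With TR2 3 are called, beside 0.921% of all genes, and with wild type 3, beside 1.69%.

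Amino acid transporters, 30 of the 201 genes, held 12 of the 48 calls between TR1 and wild type. Of all genes, 15% were called there and 10.6% between TR1 and the control. Against the control, 0.921% of all genes were called with TR2 and 1.69% with wild type. Classes differ in size, and of the 21 genes of the sugar class 6 rose and 3 fell against wild type. Of the amino acid genes 11 rose, 1 fell and 18 did not pass, and the median log2 fold change was 0.22. The split was 10 and 1 with median centring, with wild-type replicate 1 or 2 left out it was 5 and 0 or 6 and 0, and with TR1 replicate 1 or 2 left out it was 13 and 3 or 12 and 4. Against the control, 5 rose and 1 fell with TR1, with 3 and 0 without either control or wild-type library and 8 and 4 without TR1 replicate 1. SLC6A14 and SLC6A17 are among the rises with TR1, and without them 9 rose against wild type and 3 against the control. With TR2 0 were called against the control and with wild type 2 fell, but without either TR1 library 4 rose and 1 fell with TR2, and 2 rose and 3 fell with wild type.

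SLC7A5 (chromosome 16, 87830023 to 87869488, GRCh38) stood at 20040 and 21885 in the control, 12612 and 12556 with wild type, 23015 and 21357 with TR1, and 20371 and 19991 with TR2. Only the wild-type libraries were low, and they overlapped no other group. It fell with wild type by 0.73 ± 0.06 SE on the log2 scale, 1.66-fold (limma adjusted p = 0.00101). It was higher than in wild type with TR1 by 0.82 (adjusted p = 6.77e-05) and with TR2 by 0.68 (adjusted p = 0.000465). These 3 calls were kept under every alternative and with each library left out. Against the control, TR1 (0.08, adjusted p = 0.403) and TR2 (-0.05, adjusted p = 0.665) overlapped it. As a share of all SLC counts, SLC7A5 took 7.16% and 7.0% in the wild-type libraries and 10.6% to 11.8% in the other 6.

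Its heavy chain SLC3A2 (chromosome 11, 62856102 to 62888875) stood at 5650 and 6305 in the control, 3900 and 4048 with wild type, 6475 and 6151 with TR1, and 5904 and 5658 with TR2. As for SLC7A5, the wild-type libraries lay below all the others. It fell with wild type by 0.59 ± 0.07 SE (limma adjusted p = 0.00506), which did not hold with control replicate 2 (0.0523) or either wild-type library (0.0879 and 0.0682) left out. Against wild type it was higher by 0.67 with TR1 (adjusted p = 0.000359), a call kept throughout, and by 0.54 with TR2 (adjusted p = 0.00267), lost without wild-type replicate 1 (0.0503).

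The promoter windows of the pair are shown because both genes were low in the wild-type libraries. They come from RefSeq on GRCh38.p14, span 250 bases before to 50 after an annotated start, and read 5′ to 3′ on the gene's strand. For SLC7A5 the window is chr16:87869458-87869757 on the minus strand. For SLC3A2, 1 of 3 windows is shown, chr11:62881449-62881748 on the plus strand, chosen because it holds the single match found.
SLC7A5: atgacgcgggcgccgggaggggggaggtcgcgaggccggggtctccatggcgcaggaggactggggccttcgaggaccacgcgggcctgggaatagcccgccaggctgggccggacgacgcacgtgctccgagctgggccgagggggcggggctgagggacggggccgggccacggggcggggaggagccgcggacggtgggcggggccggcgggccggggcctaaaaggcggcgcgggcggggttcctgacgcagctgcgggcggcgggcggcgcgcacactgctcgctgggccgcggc
SLC3A2: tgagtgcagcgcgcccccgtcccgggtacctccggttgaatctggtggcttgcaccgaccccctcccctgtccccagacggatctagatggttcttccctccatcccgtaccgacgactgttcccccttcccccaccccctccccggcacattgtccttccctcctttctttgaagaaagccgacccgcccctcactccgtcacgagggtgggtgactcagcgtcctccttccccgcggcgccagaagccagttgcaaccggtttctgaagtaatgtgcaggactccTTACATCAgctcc
Capitals mark a match to the amino acid response motif TGATGNAA, searched on both strands and found here on the reverse one. It occurs in 3.62% of 35116 windows of all genes and in 3.85% of the 234 windows of the 161 SLC genes that have one. No match to a GATA motif (AGATAA and AGATAG and TGATAA and TGATAG, both strands) lies in either window printed. Those letters occur in 25% of all windows and 17.9% of the SLC windows. A match describes letters only.

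SLC6A14 (chromosome X, 116436622 to 116461458), a sodium- and chloride-coupled transporter of neutral and basic amino acids, was near 0 outside TR1. It stood at 1.07 and 1.22 in the control, 0 reads in both wild-type libraries, 34.9 and 56.0 with TR1, and 0 and 1.86 with TR2. With 2 reads in the control and 103 with TR1, the ratio was 40.5 with a 95% counting interval of 10.9 to 339. Against wild type it was at least 14.4-fold higher with TR1, taking a floor of 3 reads per library, and against TR2 the ratio was 50.7 (13.7 to 424). These differences were part of its choice and are given with no test. Intervals and floors cover counting error only. Its RefSeq window, chrX:116436356-116436655 on the plus strand, holds 1 GATA match, in capitals, read on the reverse strand.
SLC6A14: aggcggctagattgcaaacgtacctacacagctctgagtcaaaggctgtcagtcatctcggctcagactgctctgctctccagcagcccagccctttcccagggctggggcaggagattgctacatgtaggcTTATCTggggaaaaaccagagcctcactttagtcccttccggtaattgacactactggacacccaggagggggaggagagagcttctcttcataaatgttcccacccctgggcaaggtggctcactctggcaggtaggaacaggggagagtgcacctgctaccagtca

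SLC6A17, a vesicular neutral amino acid transporter known from neurons, stood at 10.7 and 2.44 in the control, 3.85 and 3.42 with wild type, 40.7 and 35.1 with TR1, and 7.19 and 1.86 with TR2. Both TR1 libraries lay above all the others. The mean with TR1 was 2.61 higher than the control and 3.07 higher than wild type on the log2 scale, and TR2 differed from it by -3.0, again with no test.

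SLC7A11 (chromosome 4, 138164097 to 138242349), the cystine/glutamate exchanger that feeds glutathione synthesis, stood at 29 and 35.3 in the control, 37.6 and 30.8 with wild type, 80.5 and 193 with TR1, and 84.5 and 63.1 with TR2. The TR1 libraries lay far apart and overlapped those of TR2, while both truncated forms lay above the control and wild type. It rose with TR1 against the control by 1.93 ± 0.37 SE (limma adjusted p = 0.0127), but not with control replicate 1 (0.0936) or replicate 2 (0.058) left out. With TR1 against wild type (1.84, adjusted p = 0.0109) it was lost without wild-type replicate 1 (0.0546) or replicate 2 (0.0906). TR2 did not pass against the control (1.17, limma adjusted p = 0.194), but did without either TR1 library. With only the groups compared in the fit, TR2 passed against the control (0.00478). TR1 in such a fit passed neither against the control (0.0579) nor against wild type (0.059).

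SLC43A2, a sodium-independent carrier of large neutral amino acids, was highest with TR1, at 1478 and 1339. It stood at 850 and 979 in the control, 763 and 805 with wild type, and 1032 and 951 with TR2. The rises with TR1 of 0.62 ± 0.10 SE over the control (limma adjusted p = 0.00452) and 0.84 over wild type (adjusted p = 0.000598) were kept under every alternative. TR2 was lower than TR1 by 0.50 (adjusted p = 0.0485), a call that leaving out any library other than the TR1 ones ended (0.0601 to 0.421). The glutamine transporter SLC1A5 stood at 4788 and 5152 in the control, 4424 and 4483 with wild type, 6102 and 5674 with TR1, and 5525 and 5231 with TR2. Its rise with TR1 over wild type was 0.40 (adjusted p = 0.00423, lost without wild-type replicate 1 at 0.0534). Over the control the rise was 0.24 (adjusted p = 0.0486) and was lost with median centring (0.4) and without any 1 of the control, wild-type or TR2 libraries (0.0879 to 0.245).

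The glycine transporter SLC6A9 stood at 387 and 395 in the control, 301 and 301 with wild type, 523 and 448 with TR1, and 432 and 422 with TR2. Wild type was lowest, and TR1 exceeded it by 0.68 (limma adjusted p = 0.00251), kept throughout. TR2 exceeded it by 0.50 (adjusted p = 0.0231), lost with median centring (0.0539), with quantile normalization (0.0564) and without any wild-type or TR2 library (0.148 to 0.193). In the other direction SLC7A8, a second light chain that pairs with SLC3A2, was named after its values were seen as the single amino acid gene that fell with TR1. It stood at 818 and 725 in the control, 842 and 872 with wild type, 623 and 530 with TR1, and 620 and 655 with TR2. It was lower with TR1 than in wild type by 0.58 (adjusted p = 0.00674, lost without wild-type replicate 1 at 0.0513 or replicate 2 at 0.071) and than in the control by 0.42 (adjusted p = 0.0354, lost without any library but TR1 replicate 1, at 0.0553 to 0.199). SLC38A2, a system A transporter, stood at 2584 and 2205 in the control, 3139 and 3154 with wild type, 2261 and 3796 with TR1, and 2759 and 3065 with TR2, and was called in no comparison. Without TR1 replicate 1 it passed with TR1 over the control (0.67, adjusted p = 6.01e-05). Without 1 TR1 library or the other, its difference of TR1 from wild type was 0.27 or -0.48.

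**Figure D2:**
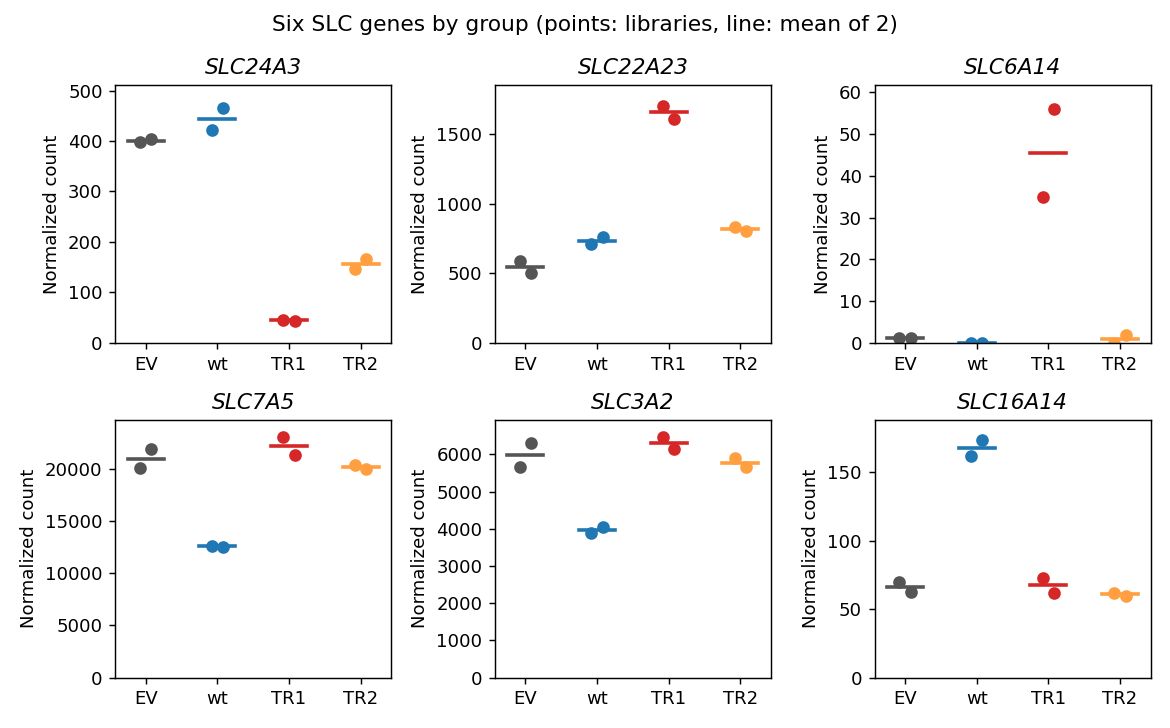
Normalized count (vertical, linear from 0) of 6 SLC genes in the control (EV), wild type (wt), TR1 and TR2, with points for libraries and lines for the mean of 2. SLC7A5 and SLC3A2 are low in wild type alone, SLC16A14 is high in wild type alone, and SLC24A3 falls from about 400.4 in the control to 156 with TR2 and 45 with TR1.

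Among 21 genes of sugar transporters and their families, 4 rose and 2 fell with TR1 against the control, and 6 rose and 3 fell against wild type. Of all genes, 10.6% and 15% were called in these comparisons, and 5.24% between TR2 and wild type. The shares of all genes also move with a library left out, as given above. The class takes in the whole SLC5 family, so its counts include SLC5A5 and SLC5A6, which carry other solutes. Against the control the split was 3 and 3 with median centring, 2 and 2 with quantile normalization, and 1 and 0 or 0 and 0 with control replicate 1 or 2 left out. Against wild type, leaving out replicate 1 or 2 of wild type gave 3 and 1 or 3 and 2. The split against the control was 5 and 4 without TR1 replicate 1. With TR2 against wild type, 4 rose and 1 fell, with 0 and 0 without any wild-type or TR2 library and 8 and 2 without either TR1 library. SLC5A1, the sodium/glucose cotransporter of intestine and kidney, was low in all groups but higher with both truncated forms. It stood at 15 and 7.31 in the control, 14.5 and 9.13 with wild type, 38.8 and 41 with TR1, and 36 and 38 with TR2. TR1 exceeded the control by 1.82 ± 0.35 SE (limma adjusted p = 0.014, lost without control replicate 2 at 0.0772) and wild type by 1.71 (adjusted p = 0.013, lost without wild-type replicate 2 at 0.11). TR2 exceeded wild type by 1.60 (adjusted p = 0.0353), lost without any wild-type or TR2 library (0.0848 to 0.258), and did not pass against the control (1.72, adjusted p = 0.0682). That difference passed with median centring (0.0157), quantile normalization (0.0458), a pseudocount of 10 (0.0474) and a length and GC trend removed (0.0338). It also passed with either TR1 library left out. With only the groups compared in the fit, TR2 passed against the control (0.00638) and TR1 did not (0.0588).

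SLC2A12, a facilitative glucose transporter, stood at 7.52 and 11 in the control, 6.74 and 5.71 with wild type, 43.6 and 24.3 with TR1, and 25.2 and 19.5 with TR2. Every library with a truncated form lay above every other library. The rise with TR1 over wild type, 2.22 ± 0.36 SE (limma adjusted p = 0.00407), was kept throughout. Over the control it was 1.73 (adjusted p = 0.0184, lost without control replicate 1 at 0.119 or replicate 2 at 0.0506). TR2 over wild type was 1.68 (adjusted p = 0.0305) and was lost without any wild-type or TR2 library (0.125 to 0.246), with no filter (0.0839) and with voom weights (0.0936). Its exons overlap those of TBPL1 on the opposite strand by 1736 bases. The labels name a strand-specific kit and the strand setting of the counting is not stated, so reads of overlapping genes may not be told apart. TBPL1, at 157 to 208 over all libraries, was not called in these comparisons.

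SLC2A4, the insulin-responsive glucose transporter, stood at 136 and 138 in the control, 105 and 107 with wild type, 189 and 188 with TR1, and 151 and 172 with TR2. No groups overlapped. TR1 exceeded wild type by 0.82 (limma adjusted p = 0.00281, kept throughout) and the control by 0.46 (adjusted p = 0.0498, lost under 14 of 18 alternatives). TR2 exceeded wild type by 0.60 (adjusted p = 0.0276, lost without any library but the TR1 ones at 0.0538 to 0.221). The widely expressed glucose transporter SLC2A1 lay between 397 and 533 in the 8 libraries and was called in no comparison, although with TR1 replicate 1 left out it passed between TR1 and the control (-0.31, adjusted p = 0.0442). SLC37A1, a sugar phosphate exchanger, was lower with TR1, at 436 and 414 against 626 and 616 in the control, 624 and 700 with wild type, and 494 and 538 with TR2. The fall from wild type was -0.64 (adjusted p = 0.0025, kept throughout) and that from the control -0.54 (adjusted p = 0.00793, lost without control replicate 1 at 0.0651 or replicate 2 at 0.0541).

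The sodium symporter family SLC5 also carries solutes other than sugars. SLC5A5, which carries iodide, stood at 232 and 268 in the control, 141 and 160 with wild type, 279 and 228 with TR1, and 273 and 231 with TR2. The wild-type libraries lay below all the others. TR1 exceeded wild type by 0.75 (limma adjusted p = 0.0115, lost without wild-type replicate 1 at 0.102) and TR2 by 0.74 (adjusted p = 0.0255, lost without any wild-type or TR2 library at 0.0862 to 0.235). Wild type against the control did not pass (-0.73, limma adjusted p = 0.0545), but did with median centring (0.0122) and with a length and GC trend removed (0.0225). It also passed without either TR1 library. With only the groups compared in the fit, wild type passed against the control (0.00739), and TR1 did not pass against wild type (0.0523). SLC5A6, which carries biotin and pantothenate, was lower with both truncated forms, at 940.5 and 882 with TR1 and 970 and 921 with TR2, than in wild type, at 1308 and 1255. The difference was -0.49 for TR1 (adjusted p = 0.00472, lost without wild-type replicate 1 at 0.06) and -0.44 for TR2 (adjusted p = 0.0179, lost without any wild-type or TR2 library at 0.106 to 0.173).

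Of 10 monocarboxylate transporter genes, 1 rose with wild type over the control and 0 were called for TR1 or TR2 against the control. Of all genes, 1.69% were called with wild type, 10.6% with TR1 and 0.921% with TR2. SLC16A14 (chromosome 2, 230034974 to 230068999), an orphan member of the family, stood at 69.8 and 62.2 in the control, 162 and 173 with wild type, 72.7 and 61.9 with TR1, and 62.0 and 59.4 with TR2. The wild-type libraries alone were high. The rise with wild type was 1.33 ± 0.16 SE (limma adjusted p = 0.00515), lost when control replicate 2 (0.0567) or either wild-type library (0.0657 and 0.0799) was left out. TR1 lay below wild type by 1.31 (log2 fold change -1.31, adjusted p = 0.00087) and TR2 likewise (-1.45, adjusted p = 0.0012), both kept throughout. Its RefSeq window, chr2:230068875-230069174 on the minus strand, is shown because this gene rose with wild type alone, and it holds 1 GATA match, in capitals.
SLC16A14: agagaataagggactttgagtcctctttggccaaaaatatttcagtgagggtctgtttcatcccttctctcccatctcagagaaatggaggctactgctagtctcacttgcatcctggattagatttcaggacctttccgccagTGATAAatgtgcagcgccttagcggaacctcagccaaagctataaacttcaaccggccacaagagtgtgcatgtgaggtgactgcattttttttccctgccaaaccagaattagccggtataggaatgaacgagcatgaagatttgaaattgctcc
The lactate transporters were called in no comparison. SLC16A1 lay between 69.2 and 129 and SLC16A3 between 1292 and 1633 over the 8 libraries, and SLC16A3 passed between TR1 and the control with TR1 replicate 1 left out (-0.29, adjusted p = 0.00842). SLC16A6, described as a ketone body transporter, was lower with TR1, at 18.4 and 12.5, than with wild type, at 37.6 and 43.4 (-1.35, limma adjusted p = 0.00832, lost without wild-type replicate 2 at 0.0796). ARSG, whose exons overlap it by 167 bases on the opposite strand, was lower too (-1.63, adjusted p = 0.000188).

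Among 14 genes for metal cation and proton transport, SLC24A3 (chromosome 20, 19212646 to 19722937) had the largest fall of all SLC genes with TR1 and was called in 5 of 6 comparisons. It encodes a plasma membrane exchanger that moves calcium and potassium against sodium. It stood at 397 and 403 in the control, 422 and 466 with wild type, 45.6 and 44.3 with TR1, and 146 and 167 with TR2. No truncated library reached the lowest of the other groups, and TR2 lay between. TR1 was 8.74-fold lower than the control (-3.13 ± 0.12 SE, limma adjusted p = 3.05e-06) and 9.67-fold lower than wild type (-3.27, adjusted p = 1.26e-06). TR2 was 2.56-fold lower than the control (-1.35, adjusted p = 0.00167) and 2.83-fold lower than wild type (-1.50, adjusted p = 0.000279). The truncated forms differed directly, with TR2 higher than TR1 by 1.77 (adjusted p = 0.000339). All 5 calls were kept under every alternative and with each library left out. Wild type and the control did not differ detectably (0.15, adjusted p = 0.636).

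SLC41A2, a magnesium transporter, stood at 110 and 98.7 in the control, 163 and 138 with wild type, 191 and 200 with TR1, and 143 and 165 with TR2. The control was lowest. TR1 exceeded it by 0.90 ± 0.14 SE (limma adjusted p = 0.00526), a call kept with each library left out and lost when a length and GC trend was removed (0.123).

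Of 21 transporters of chloride, bicarbonate, phosphate and other inorganic anions, 4 fell and 0 rose with TR1 against the control, beside 10.6% of all genes called. With median centring 5 fell and 2 rose, without control replicate 1 the counts were 2 and 0, and without TR1 replicate 1 they were 5 and 3. SLC12A7, a potassium-chloride cotransporter, stood at 1613 and 1647 in the control, 1397 and 1487 with wild type, 1165 and 1056 with TR1, and 1206 and 1208 with TR2. Both truncated forms lay below the other groups. TR1 was lower than the control by a log2 change of -0.55 ± 0.07 SE (limma adjusted p = 0.0026), kept throughout. For TR2 it was -0.43 (adjusted p = 0.039), lost without any library but the TR1 ones (0.113 to 0.322), with no filter (0.0661) and without a variance trend (0.114). SLC12A4, of the same kind, was named after its values were seen. It fell from 1190 and 1078 in the control to 807 and 765 with TR1 (-0.53, adjusted p = 0.00535, lost without control replicate 1 at 0.0558). The phosphate transporter SLC20A1 fell from 1019 and 1158 in the control to 759 and 718 with TR1 (-0.56, limma adjusted p = 0.00437). That call was kept with each library left out and lost with only these groups (0.0588). SLC4A8, a sodium-driven chloride/bicarbonate exchanger, fell from 189 and 173 to 91.1 and 91.2 (-0.98, adjusted p = 0.0102, lost without control replicate 1 at 0.082 or replicate 2 at 0.0532). GALNT6, which its exons overlap by 313 bases on the opposite strand, was lower as well (-0.57, adjusted p = 0.00207). The sodium-potassium-chloride cotransporter SLC12A2 was not called. It stood at 80.5 and 69.5 in the control and 96.0 and 188 with TR1, and without TR1 replicate 1 it passed (1.32, adjusted p = 0.000115).

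In the group of 25 carriers of organic ions, vitamins and other solutes, SLC22A23 (chromosome 6, 3268962 to 3457022) stood apart in level with TR1. It is an orphan member of the organic ion transporter family. It stood at 585 and 505 in the control, 711 and 759 with wild type, 1704 and 1608 with TR1, and 829 and 805 with TR2. TR1 was 3.04-fold above the control (1.60 ± 0.09 SE, limma adjusted p = 2.43e-05) and 2.25-fold above wild type (1.17, adjusted p = 7.87e-05). TR2 lay below TR1 by 2.02-fold (-1.02, adjusted p = 0.00148), and these 3 calls were kept throughout. TR2 exceeded the control by 0.59 (adjusted p = 0.0255), lost without any library but the TR1 ones (0.056 to 0.268) and without a variance trend (0.0794). PSMG4 overlaps its exons by 2640 bases on the opposite strand, lay between 177 and 234 in all libraries and was not called. SLC22A18, another member of the family, stood at 227 and 191 in the control, 207 and 226 with wild type, 158 and 149 with TR1, and 166 and 165 with TR2. It was lower with TR1 than with wild type (-0.49, adjusted p = 0.0327, lost without any wild-type or TR2 library at 0.0676 to 0.218, with no filter at 0.0527 and with quantile normalization at 0.0509).

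The 42 mitochondrial carriers were the largest family. Against the control 1 rose and 2 fell with TR1, beside 10.6% of all genes called. With TR2 or wild type 0 were called, beside 0.921% and 1.69% of all genes. The rise is that of SLC25A48, which passed the level threshold through TR1. The split with TR1 was 1 and 4 with median centring, 1 and 0 without either control library and 4 and 10 without TR1 replicate 1. With TR1 replicate 1 or 2 left out, 4 and 0 or 4 and 1 were called with TR2, and 2 and 2 or 1 and 2 with wild type. SLC25A48 (chromosome 5, 135579202 to 135889770), an inner membrane carrier linked to choline, had 0 reads in the control and wild-type libraries. The TR1 libraries held it at 18.4 and 18.4 and the TR2 libraries at 4.49 and 0.93. With 41 reads in the TR1 libraries, it was at least 5.35-fold higher than the control and at least 5.83-fold higher than wild type, against a floor of 3 reads per library. Its level with TR1 chose it, so no test is given.

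SLC25A48 starts 181 bases from CXCL14, a chemokine gene on the opposite strand, and their exons overlap by 78 bases. CXCL14 stood at 12.9 and 15.9 in the control, 0 reads with wild type, 2283 and 1997 with TR1, and 203 and 192 with TR2. SLC25A48 thus had reads in the 4 libraries in which CXCL14 was highest, at well under its level. RefSeq gives another SLC25A48 start 255672 bases from that of CXCL14, and the counts do not say which start was used or which strand the reads came from. The window of the nearer start, chr5:135578922-135579221 on the plus strand, covers the start of both genes and holds no match to either motif.
SLC25A48: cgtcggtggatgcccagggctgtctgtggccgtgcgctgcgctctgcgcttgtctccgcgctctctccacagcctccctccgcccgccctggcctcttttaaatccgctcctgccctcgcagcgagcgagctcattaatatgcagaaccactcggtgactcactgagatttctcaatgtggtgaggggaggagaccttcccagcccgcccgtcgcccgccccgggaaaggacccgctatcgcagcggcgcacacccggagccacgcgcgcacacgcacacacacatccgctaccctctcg

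**Figure D3:**
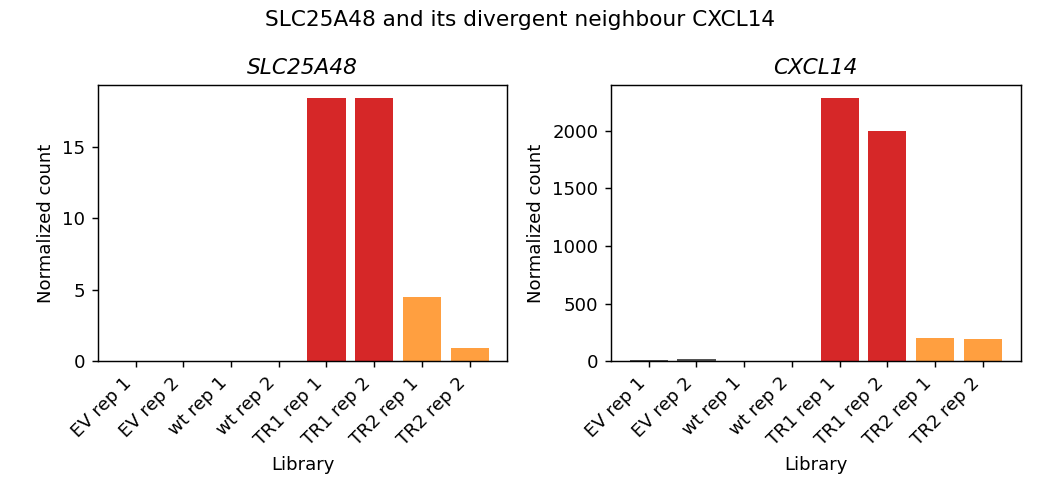
Normalized count (vertical, linear from 0, with its own scale for each gene) of SLC25A48 and of CXCL14 in each of the 8 libraries (bars). SLC25A48 reaches 18.4 in both TR1 libraries and CXCL14 reaches 2283 and 1997, with the TR2 libraries next for both genes.

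SLC25A18, a mitochondrial glutamate carrier, stood at 46.2 and 42.7 in the control, 47.2 and 49.1 with wild type, 25.2 and 20.1 with TR1, and 30.6 and 24.1 with TR2. TR1 was lower than wild type by a log2 change of -1.06 (limma adjusted p = 0.0134, lost without wild-type replicate 1 at 0.0811 or replicate 2 at 0.0977). It was lower than the control by -0.95 (adjusted p = 0.0304, lost without either control library at 0.155 and 0.109, either wild-type library at 0.0626 and 0.0629, TR1 replicate 2 at 0.0853 or TR2 replicate 1 at 0.0501). SLC25A45 was higher with both truncated forms, at 129 and 131 with TR1 and 133 and 134 with TR2, than with wild type, at 81.9 and 76.5. The rises were 0.71 (adjusted p = 0.00759, lost without wild-type replicate 2 at 0.0709) and 0.75 (adjusted p = 0.0132, lost without any wild-type or TR2 library at 0.0797 to 0.121). The abundant SLC25A5 lay between 7354 and 9461 and was called in no comparison. With TR1 replicate 1 left out, TR1 was lower than the control (-0.32, adjusted p = 0.00163) and wild type (-0.30, adjusted p = 0.00258).

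Of 19 zinc transporters, 1 rose and 1 fell with TR1 against the control, close to the 10.6% of all genes called. The split was 1 and 2 with median centring, 0 and 0 or 0 and 1 with control replicate 1 or 2 left out, and 7 and 2 without TR1 replicate 1. SLC30A4, which moves zinc out of the cytosol into vesicles, stood at 103 and 92.6 in the control, 113 and 97.0 with wild type, 148 and 198 with TR1, and 163 and 180 with TR2. Both truncated forms lay above both other groups. TR1 exceeded the control by 0.81 ± 0.17 SE (limma adjusted p = 0.0203), a call lost without either control library. TR2 did not pass against the control (0.80, adjusted p = 0.077), but did with median centring (0.0354) and with a length and GC trend removed (0.0446). It also passed without either TR1 library. With only the groups compared in the fit, TR2 passed against the control (0.00282) and TR1 did not (0.0959). SLC39A2, a zinc importer, stood at 59.1 and 46.3 in the control, 38.5 and 41.1 with wild type, 20.4 and 18.4 with TR1, and 35.1 and 28.8 with TR2. It fell with TR1 against the control by 1.39 ± 0.22 SE (adjusted p = 0.00562, lost without control replicate 1 at 0.0544). SLC39A11 was highest in wild type, at 1435 and 1542, against 1097 and 1007 with TR1 and 1188 and 1131 with TR2. The differences were -0.50 for TR1 (adjusted p = 0.00394, lost without wild-type replicate 2 at 0.0578) and -0.36 for TR2 (adjusted p = 0.0375, lost with median centring at 0.11 and without any library but the TR1 ones at 0.064 to 0.324). SLC39A6, long used as a marker of estrogen receptor-positive breast tumours, lay between 1353 and 1765 and was called in no comparison.

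Among 10 lipid transporters, SLC27A6, a fatty acid transport protein, stood at 17.2 and 19.5 in the control, 36.6 and 33.1 with wild type, 5.82 and 7.53 with TR1, and 4.49 and 14.9 with TR2. Wild type was highest. TR1 was lower than wild type by a log2 change of -2.23 ± 0.46 SE (limma adjusted p = 0.0128, lost without wild-type replicate 1 at 0.0939 or replicate 2 at 0.0793). TR2 was lower by -1.94 (adjusted p = 0.0475, lost without any control or wild-type library at 0.0807 to 0.261 or without TR2 replicate 1 at 0.219). SLC44A3, a choline transporter-like gene, was lower with TR1 than the control (-0.55, adjusted p = 0.0483, lost without any library but TR1 replicate 1 at 0.0824 to 0.224).

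The 9 carriers of nucleosides and nucleotide sugars included 2 that rose with TR1 against the control and 3 against wild type, and none fell in either. Of all genes, 10.6% and 15% were called in these comparisons. Without either control library 0 rose against the control, without either wild-type library 0 rose against wild type, and with median centring 0 and 1 rose. The rises were 4 and 5 without TR1 replicate 1. SLC35A2, the UDP-galactose transporter of the Golgi, stood at 908 and 979 in the control, 952 and 910 with wild type, 1270 and 1182 with TR1, and 1055 and 1036 with TR2. TR1 lay above all the other libraries. The rise was 0.38 ± 0.08 SE over the control (limma adjusted p = 0.0174, lost without control replicate 1 at 0.133 or replicate 2 at 0.0566 and with median centring at 0.136). Over wild type it was 0.40 (adjusted p = 0.0099, lost without wild-type replicate 1 at 0.0616 or replicate 2 at 0.106 and with median centring at 0.0559). SLC29A2, an equilibrative nucleoside transporter, exceeded wild type with TR1 by 0.42 (adjusted p = 0.00765), at 1363 and 1222 against 961 and 965, and this was lost without wild-type replicate 1 (0.0727) or replicate 2 (0.0708).

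**Figure D4:**
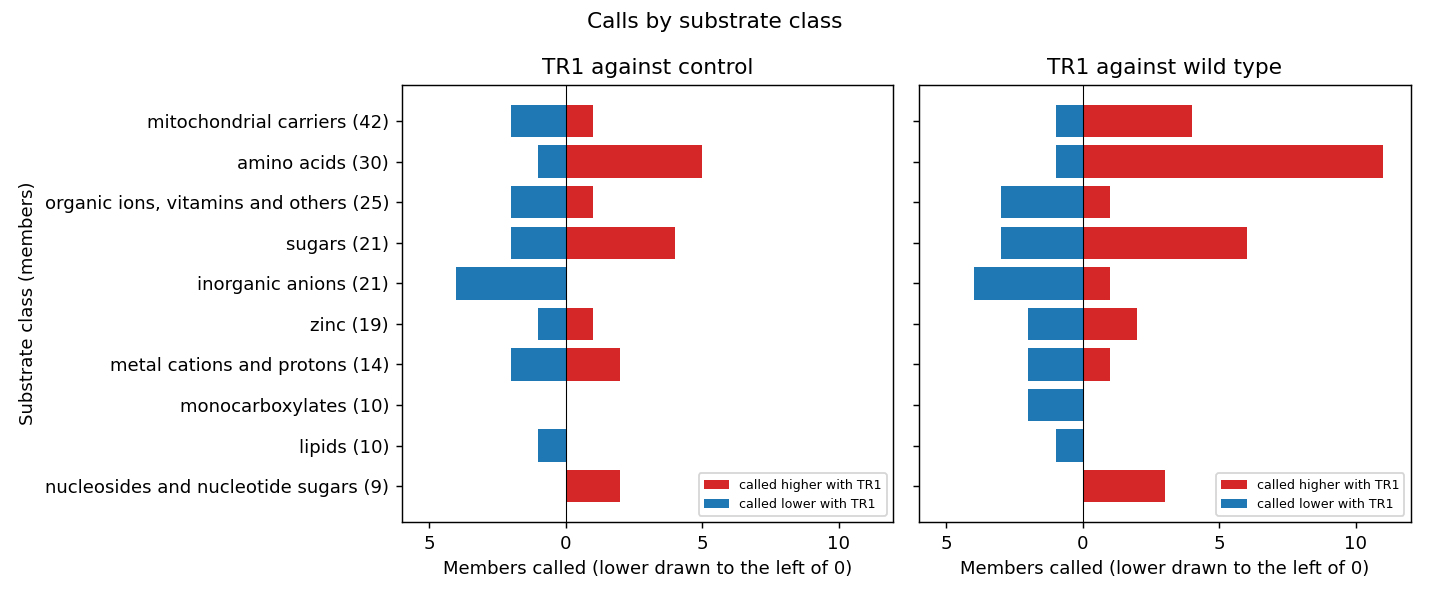
Number of SLC genes called by limma (horizontal, lower calls to the left of 0 and higher calls to the right) in each substrate class, with the class size in brackets, for TR1 against the control and TR1 against wild type. Amino acid transporters have 11 higher and 1 lower against wild type, beside 15% of all genes called. Inorganic anion transporters have 0 higher and 4 lower against the control, beside 10.6% of all genes called. The bars include SLC6A14, SLC6A17 and SLC25A48, which passed the level threshold through TR1 alone and are given no test. Without them, 9 amino acid transporters are higher against wild type.

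Across the 6 comparisons the SLC genes gave 103 calls, 7 of them of SLC6A14, SLC6A17 and SLC25A48. Calls of other genes were not followed through the alternatives, so the counts kept have no share of all genes beside them. Of the other 96 calls, 21 were kept under every one of the 17 or 18 alternatives that tested them. Of these 21, 4 belong to TR1 against the control (SLC24A3, SLC12A7, SLC22A23 and SLC43A2) and 10 to TR1 against wild type. The heat map of the SLC genes called with at least a 2-fold change in any comparison holds 14 genes. Its rows show SLC5A1 and SLC2A12 high in all 4 libraries of the truncated forms. SLC6A14, SLC6A17 and SLC25A48 are highest with TR1 there, which restates how they passed the level threshold.

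**Figure D5:**
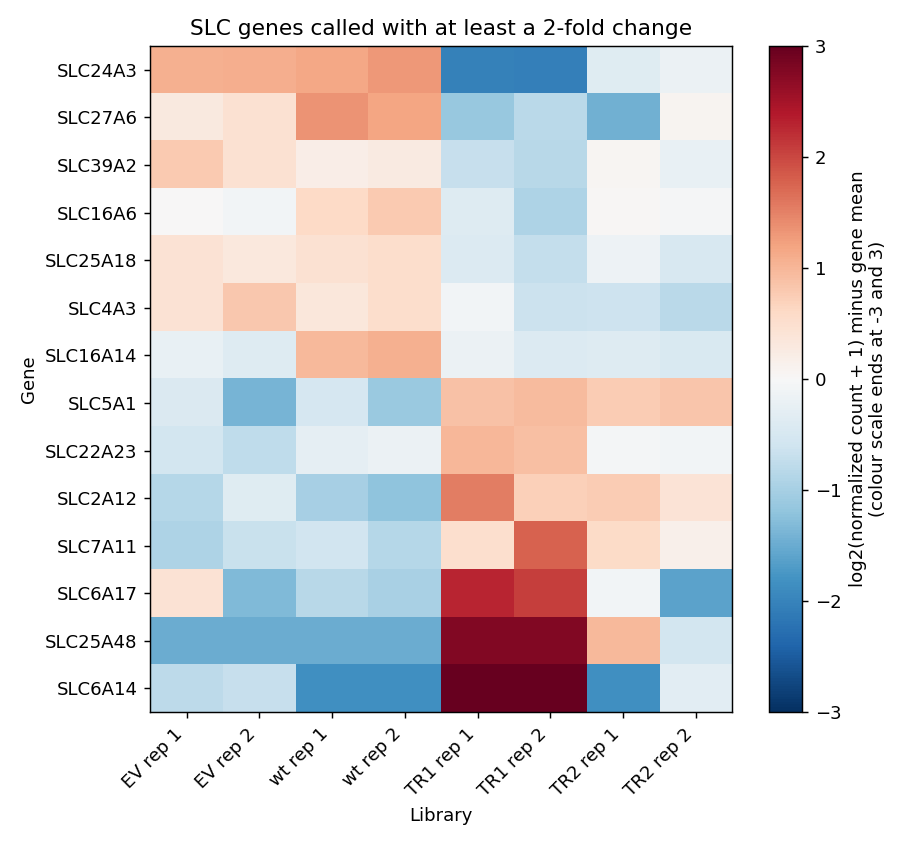
Log2(normalized count + 1) minus the gene's mean over the 8 libraries (colour, ending at -3 and 3) for the 14 SLC genes (rows) called with at least a 2-fold change, in each library (columns). SLC24A3 is lowest in both TR1 libraries, and SLC16A14 is highest in both wild-type libraries. SLC6A14 is highest in both TR1 libraries, through which alone it passed the level threshold.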

How the data were processed

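The authors deposited log2(normalized count + 1) values per gene symbol. TopHat, HTSeq and hg38 are named, without versions, per the submitters' processing notes, and the annotation, strand setting and scaling are not given in the sources used here. Returned to the linear scale, 100% of values in each library lay within 0.01 of a whole multiple of a single step, which gave the reads.

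The 14881 genes that met the level threshold entered limma 3.58.1 (R 4.3.3) as deposited log2 values, with lmFit, contrasts and a variance trend in eBayes. The 8 libraries were fitted together with group as the only term, and 4 residual degrees of freedom remained. The 6 comparisons were two-sided with Benjamini-Hochberg adjustment inside each. The pipeline was tested on simulated data. All 201 SLC symbols matched GENCODE release 29 (GRCh38), which gave coordinates and exon lengths, and 161 had a RefSeq promoter window.

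Named genes are, for each comparison, up to 8 rises and 8 falls among calls without overlap between groups, 2 genes per substrate class with the highest level and 2 with the most calls, and 12 fixed genes, of which only part is given. The genes and lists were chosen with earlier results of these data known. Alternatives were other filters, a pseudocount of 10, other scalings, no variance trend, only the groups compared, voom weights, the replicate block and each library left out.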

Additional observations from a re-analysis of the deposited data

How the results depend on the processing

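Counts are SLC genes called. The 31 between TR1 and the control became 9 with only these groups, 51 with a length and GC trend removed (chosen after seeing the data, as are all values under it) and 10 to 73 with a library left out. The 3 between TR2 and the control became 7 with median centring, 1 with no variance trend, 29 with only these groups, 7 with the length and GC trend removed and 1 to 39 with a library left out. The 3 between wild type and the control became 17 with only these groups, 6 with the trend removed and 1 to 25 with a library left out. The 48 between TR1 and wild type became 19 with only these groups, 74 with the trend removed and 15 to 77 with a library left out. The 14 between TR2 and wild type became 9 with no filter, 9 with no variance trend, 54 with only these groups, 36 with the trend removed and 3 to 43 with a library left out. The 4 between TR2 and TR1 ranged from 2 to 20 with a library left out. The cause was not tested. For TR2 against the control, shares of all genes were 1.7% with median centring and 0.645% with no variance trend. For TR2 against wild type they were 2.1% with no filter and 4.43% with no variance trend. Shares of all genes with a library left out stand beside the counts in the Results. The cause of these changes was not tested. None of the SLC calls changed sign under an alternative.

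With the replicate number as a replicate block, the counts in the order above were 24, 2, 3, 39, 11 and 4. The labels give only numbers, and deviations of same-numbered libraries had a correlation between -0.090 and 0.148 across genes, so the samples were not treated as pairs. Groups of 2 libraries, and the spread of the TR1 pair, limit what could be called, and genes near 10 normalized counts rest on few reads. A group left with 1 library was assumed to vary like the others.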

Other observations

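Beside the SLC genes, 78 genes that work with carriers or next to them were read, and 61 were tested. With TR1 5 rose and 9 fell against the control (23% called, beside 10.6% of all genes), and 4 rose and 11 fell against wild type (24.6%, beside 15%). With TR2 0 rose and 1 fell against the control (1.64%, beside 0.921%), and 1 rose and 7 fell against wild type (13.1%, beside 5.24%). With wild type 4 rose and 0 fell against the control (6.56%, beside 1.69%). Of 14 ABC transporter genes tested, which use ATP in place of ion gradients, 2 rose and 3 fell with TR1 against the control. ABCC11, an exporter of lipophilic anions known from apocrine glands, stood at 191 and 198 in the control, 240 and 227 with wild type, 44.6 and 50.2 with TR1, and 112 and 104 with TR2. TR2 lay between TR1 and the other groups. The log2 fold change from the control was -2.02 for TR1 (limma adjusted p = 4.58e-05) and -0.85 for TR2 (adjusted p = 0.0255), and TR2 exceeded TR1 by 1.17 (adjusted p = 0.00415). ABCC4, an exporter of cyclic nucleotides, stood at 7.52 and 3.66 in the control and 6.74 and 3.42 with wild type. It stood at 45.6 and 44.3 with TR1 and 10.8 and 4.64 with TR2. The mean with TR1 was 2.87 higher than the control on the log2 scale. Without the TR1 libraries ABCC4 would not have passed the level threshold, so no test is given. The rises with TR1 counted above include it. ABCG1, a sterol exporter, was highest with wild type, at 278 and 237 against 138 and 140 in the control (0.88, adjusted p = 0.0159).

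Of 6 genes tested for the sensing of amino acids, ATF4, the transcription factor of the amino acid response, stood at 2940 and 3233 in the control, 2680 and 2768 with wild type, 4040 and 3653 with TR1, and 3769 and 3448 with TR2. Over wild type ATF4 rose by 0.50 with TR1 (limma adjusted p = 0.00386) and by 0.40 with TR2 (adjusted p = 0.0218). Over the control it rose by 0.32 with TR1 (adjusted p = 0.0385) and did not pass with TR2 (0.23, adjusted p = 0.232). RRAGD also rose with TR1 over the control, by 0.54 (adjusted p = 0.0273). Of the 6 genes, 2 thus rose and 0 fell with TR1 against the control, beside 10.6% of all genes called. MYC was highest with wild type, at 379 and 363 against 193 and 213 in the control (0.86, adjusted p = 0.0064). STK39, a kinase that acts on cation-chloride cotransporters, was highest with wild type too, at 258 and 236 against 155 and 154 (0.68, adjusted p = 0.0241). The genes of these lists were not read under the alternatives.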
